A study of Arabidopsis thaliana with 6 samples.

Results

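The genes carried by the chloroplast genome were followed in the roots of wild-type (Col) and spy-3 Arabidopsis seedlings. Their members are the probe sets annotated to a single gene whose locus tag marks the plastid genome in the RefSeq gene table of TAIR10.1. They number 69 of the 22746 probe sets of the array, with 1 probe set for each of 69 genes of the 78 plastid gene symbols in that table. By class, 5 encode subunits of photosystem I (psa), 15 of photosystem II (psb), 6 of the cytochrome complex between the photosystems (pet), 6 of the ATP synthase (atp) and 10 of the NADH dehydrogenase-like complex (ndh). Another 8 encode proteins of the small (rps) and 7 of the large (rpl) ribosomal subunit, 4 encode the plastid RNA polymerase (rpo), 1 is rbcL, the large subunit of the carbon-fixing enzyme Rubisco, and 7 have other roles.

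Plastids keep a small genome of bacterial descent, and most proteins of photosynthesis and of plastid gene expression are nevertheless made from nuclear genes and imported. Many plastid genes are transcribed together in units that resemble bacterial operons, by a polymerase encoded in the plastid (the rpo genes) and by another encoded in the nucleus. Root plastids are mostly colourless, but they carry the same genome as the chloroplasts of leaves, and the roots of seedlings grown in light can form some green plastids. Plastid transcripts mostly lack the stable poly(A) tails of nuclear transcripts, and how the cDNA was primed is not given in the sources used here.

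Both groups were whole roots of seedlings of the Columbia ecotype, harvested at 7 d after germination on vertical MS agar plates under long days, without further treatment. The wild-type group comprised 3 arrays, and the spy-3 group, a mutant of the glycosyltransferase gene SPINDLY (SPY), comprised another 3. The mutant is represented by a single allele. The replicates are described as biological, without saying how they were separated, so that p-values cover only the variation among these arrays, which may be technical. SPY itself gave signals of 258.2, 251.7 and 292.3 in wild type and 244.9, 316.7 and 294.4 in spy-3 (limma adjusted p = 0.728). Transcript level does not check the labels here, since a mutant allele may still be transcribed normally.

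The ATH1 array measures a transcript by the brightness of a set of short probes, given here as a linear signal. The median signal over all probe sets was 85.4 to 87.2 on the 6 arrays. The genotypes were compared on the log2 scale in limma, p-values were adjusted by Benjamini-Hochberg across the whole array, and a gene is said to have fallen or risen at an adjusted p under 0.05. By this rule 3.13% of all probe sets fell in spy-3 and 2.64% rose. Because bulk tissue was measured, fewer cells of a type and less RNA per cell cannot be told apart. Signals of different probe sets depend on their probes and are not set against each other.

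As a group, the chloroplast-encoded genes lay slightly below wild type in spy-3. The log2 fold change was below 0 for 54 of the 69 members, or 78.3%, against 46.7% of all probe sets, and above 0 for 15, against 53% of all probe sets. The median log2 fold change was -0.17, or 10.8% lower, against 0.02 over all probe sets, and -0.11 without spy-3 replicate 2. Taken singly, most members differed by little beside the spread between arrays, and the 95% interval held 0 for all but 9. Only 1 member, rpl22, fell by the test, which is 1.45% of the members and below the 3.13% of all probe sets, and none rose. At an unadjusted p of 0.05, 9 members were lower and none was higher, against 9.34% of all probe sets lower and 9.85% higher. All 3 spy-3 arrays lay below all 3 wild-type arrays for 8 members, or 11.6%, close to the 11.5% of all probe sets. None of the members had all spy-3 arrays above wild type, against 12.7% of all probe sets. No member passed a fold change of 1.5 with an adjusted p of 0.01 in either direction, which 0.8% of all probe sets passed as lower and 0.435% as higher. The group was therefore marked by the common sign of small differences and not by the number of called genes. Members share their arrays and in part their transcripts, so this sign is a description without a test.

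**Figure D1:**
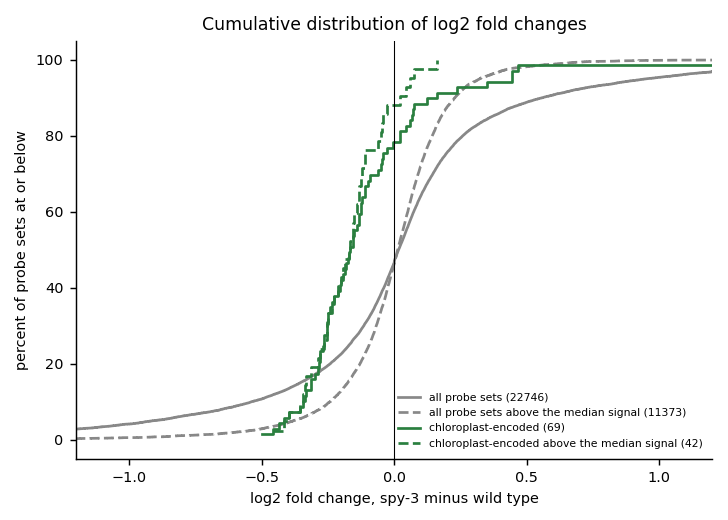
Cumulative share of probe sets (vertical axis, percent) at or below each log2 fold change of spy-3 against wild type (horizontal axis, cut at -1.2 and 1.2), for all probe sets and the chloroplast-encoded ones, with dashed lines for those above the median signal. The green curves cross 0 at 78.3% and 88.1%, and the grey ones at 46.7% and 46.4%.

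The sign was clearest among members that the array measured well. Of the 42 members whose mean log2 signal exceeded 6.42, the median over all probe sets, 37 were below 0, or 88.1%, against 46.4% of all probe sets above that median. Their median log2 fold change was -0.17. All 8 members without overlap and all 9 with an unadjusted p under 0.05 were among these 42, or 19% and 21.4% of them, against 15.6% and 13.8% of all probe sets above that median. Of the 27 other members, 17 were below 0, with a median of -0.13. The median standard error of the log2 fold change was 0.11 for the 42 brighter members and 0.32 for the 27 others. For 31 of the 42 brighter members the 95% interval lay within a change of 1.5-fold either way. The largest single estimates belong to dim members and carry wide intervals. An example is petD, a subunit of the cytochrome complex, with signals of 17.9, 1.7 and 6.0 in wild type and 12.0, 13.3 and 17.9 in spy-3. Its log2 fold change of 1.32 had an interval from -0.72 to 3.36.

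Genes of the plastid's own gene expression are taken here before those of photosynthesis. The 19 rps, rpl and rpo genes had a median log2 fold change of -0.26, with 15 below 0, and the 43 genes of photosynthesis and electron transport one of -0.13, with 33 below 0. Without spy-3 replicate 2 the medians were -0.16 and -0.10, and without wild type replicate 1 they were -0.17 and -0.12. Much of the gap between them therefore rested on each of these arrays. Among members above the median signal, 13 of 13 genes of the former group and 19 of 23 of the latter were below 0. The difference between these groups of genes was not tested, because genes are not replicates.

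The ribosomal protein gene rpl22 gave signals of 658.0, 611.0 and 665.1 in wild type and 499.8, 525.7 and 529.2 in spy-3. The groups did not overlap, and its level fell by 0.31 on the log2 scale (standard error 0.05, adjusted p = 0.0154), or 19.6%. This call was lost when any array other than wild type replicate 2 was left out, with adjusted p values from 0.0505 to 0.0755, while the log2 fold change stayed between -0.35 and -0.29. It was also lost in limma without a mean-variance trend (adjusted p = 0.0847) or with the replicate number as a block (adjusted p = 0.0626). A one-way analysis of variance with the same adjustment lost it too (adjusted p = 0.0651).

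The next members lay just outside the threshold. In the gene ndhI, whose product is an iron-sulfur subunit of the NADH dehydrogenase-like complex, signals of 818.1, 874.8 and 769.9 in wild type stood against 689.1, 585.6 and 665.4 in spy-3 (limma log2 fold change -0.35, standard error 0.08, adjusted p = 0.0555). For rps4, a small-subunit gene, they were 329.4, 324.7 and 417.3 in wild type and 248.5, 260.4 and 266.0 in spy-3 (limma log2 fold change -0.46, standard error 0.10, adjusted p = 0.0581). In the case of rpoA, the alpha subunit of the plastid polymerase, the signals were 1316.0, 1249.7 and 1211.8 in wild type and 1072.6, 828.5 and 982.5 in spy-3 (limma log2 fold change -0.40, standard error 0.10, adjusted p = 0.0722). In each of these genes every spy-3 array was below every wild-type array. All of them passed with each array centred on its median or with an offset of 16 or 64 added to the signal. Each of these settings called 4 of the 69 members, against 3.49%, 3.59% and 3.53% of all probe sets. The genes passed also with robust variances or without the dimmest 40% of probe sets, where rpl36 passed as well. These 2 settings called 5 of 69 and 5 of 46 tested members, against 3.76% and 7.34% of the probe sets tested. The calls therefore turned on the processing, whereas the signs of these 5 genes were the same in all 16 fits.

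Among the other ribosomal protein genes, rpl36 had signals of 523.5, 518.6 and 395.6 in wild type and 383.9, 336.5 and 349.8 in spy-3 (limma log2 fold change -0.42, adjusted p = 0.115). The lowest wild-type array lay only slightly above the highest spy-3 array. For rps2 the values were 165.3, 194.1 and 164.8 against 143.3, 146.2 and 148.4 (limma log2 fold change -0.26, adjusted p = 0.146), again without overlap. The brightest rps probe set, that of rps3, had signals of 992.2, 922.2 and 658.6 in wild type and 814.1, 605.1 and 684.2 in spy-3, with overlapping groups (limma log2 fold change -0.28, adjusted p = 0.47). Of the remaining rps and rpl genes, those above the median signal had log2 fold changes from -0.36 (rpl33) to -0.13 (rps19), and the 4 dim ones ranged from -0.28 (rps15) to 0.35 (rps14). Among the other polymerase genes, which encode the beta-type subunits, rpoC1 had signals of 178.7, 202.1 and 142.0 in wild type and 165.2, 145.3 and 142.4 in spy-3 (limma log2 fold change -0.20, adjusted p = 0.525). The groups overlapped. The log2 fold changes of rpoC2 and rpoB were -0.25 and 0.02, the latter with an interval from -1.40 to 1.45.

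**Figure D2:**
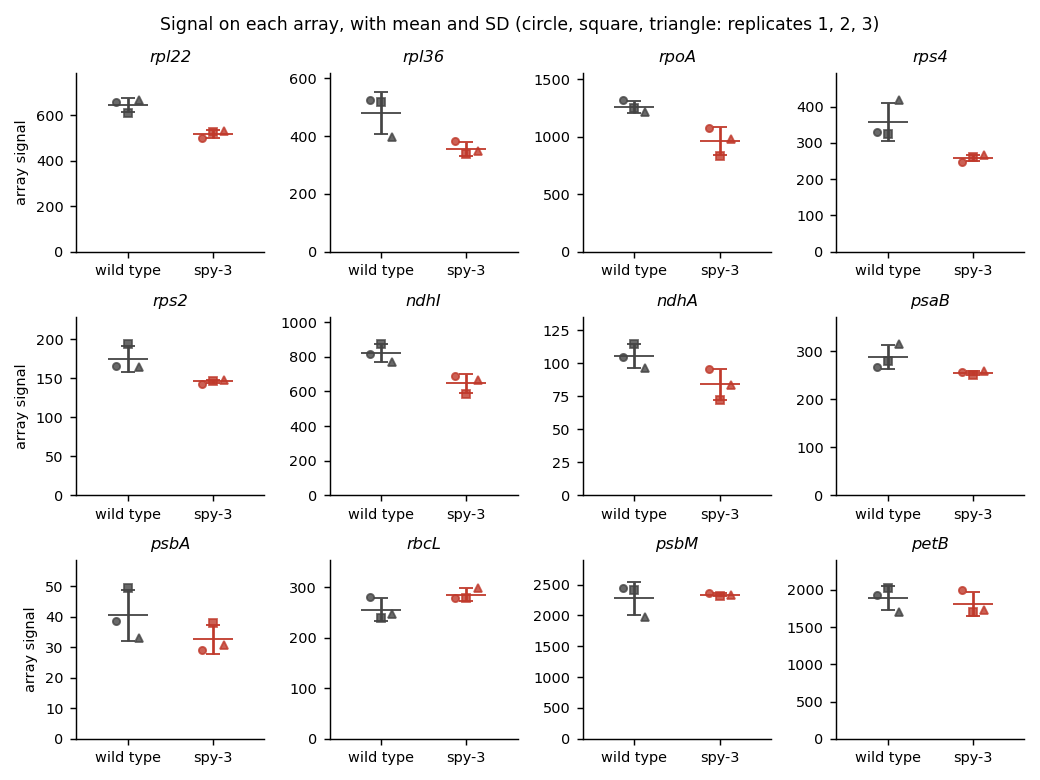
Signal on each array (vertical axes, linear array signal from 0) for 12 chloroplast-encoded genes in wild type (grey) and spy-3 (red). Points are single arrays, and bars give the mean and SD of 3. The upper 8 panels hold the 8 genes without overlap between genotypes, and the bottom row 4 genes with overlap, among them rbcL, whose mean was 255.5 in wild type and 285.2 in spy-3.

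Of 5 photosystem I genes 4 were below 0, with a median log2 fold change of -0.17, or -0.10 without wild type replicate 3, and no call. The reaction-centre gene psaB had signals of 267.9, 279.8 and 314.8 in wild type and 255.8, 250.6 and 258.8 in spy-3, or 11.1% lower (limma log2 fold change -0.17, interval -0.33 to -0.01, adjusted p = 0.244). Its partner in the reaction centre, psaA, had a log2 fold change of -0.17 (interval -0.64 to 0.29). In psaJ, a small membrane subunit, 374.4, 310.4 and 227.4 in wild type overlapped widely with 316.1, 205.8 and 233.6 in spy-3 (limma log2 fold change -0.27, interval -0.81 to 0.28, adjusted p = 0.598). The small subunit gene psaI gave 205.0, 196.7 and 185.8 against 201.0, 204.3 and 190.4, with an interval from -0.12 to 0.17. The iron-sulfur subunit gene psaC had a log2 fold change of -0.13 (interval -0.87 to 0.61).

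Of 15 photosystem II genes 12 were below 0, with a median log2 fold change of -0.12 and no call. The probe set of psbA, the gene of the D1 reaction-centre protein, was dim here, which does not give the gene's level in roots. Its signals were 38.7, 49.6 and 33.0 in wild type and 29.2, 38.0 and 30.6 in spy-3 (limma log2 fold change -0.30, interval -0.85 to 0.25, adjusted p = 0.549). The lowest p of the class was that of psbJ, a small subunit, with 261.7, 248.1 and 219.1 in wild type and 225.5, 189.3 and 196.4 in spy-3 (limma log2 fold change -0.25, adjusted p = 0.215). Here the highest spy-3 array exceeded the lowest wild-type array. The small subunit gene psbI followed, with 207.3, 221.9 and 222.2 against 196.4, 189.2 and 208.9 (limma log2 fold change -0.13, adjusted p = 0.304). For psbM, the brightest probe set of the class, signals of 2451.5, 2409.9 and 1970.2 stood against 2366.0, 2309.8 and 2336.2. The interval for psbM, from -0.16 to 0.25, was narrow and held 0. The genes of the other reaction-centre protein and the inner antennae, psbD, psbC and psbB, had log2 fold changes of -0.27, -0.03 and 0.47, and that of psbB, a dim member, had an interval from -0.41 to 1.35.

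The cytochrome complex and the ATP synthase were the classes whose medians lay nearest to 0. The gene of cytochrome f, petA, had signals of 812.1, 904.5 and 921.6 in wild type and 898.8, 649.7 and 746.2 in spy-3 (limma log2 fold change -0.21, adjusted p = 0.413). Its partner petB, which encodes the b-type cytochrome, gave 1934.0, 2032.9 and 1709.2 against 1995.9, 1703.5 and 1736.0, with an interval from -0.27 to 0.15. The small subunit genes petG, petL and petN were dim, with log2 fold changes of 0.07, -0.50 and -0.10. The 6 members of the class had a median of -0.08. This median was 0.02 without spy-3 replicate 2 and below 0 in the other fits. Its rank did not hold in every fit. Without wild type replicate 1 it was -0.16, further from 0 than the -0.14 of photosystem I and the -0.11 of photosystem II. In the ATP synthase class the median was -0.04, and -0.01 without wild type replicate 3. The catalytic beta subunit gene atpB had signals of 1878.3, 1781.2 and 2441.1 in wild type and 1833.0, 1679.1 and 1918.3 in spy-3 (limma log2 fold change -0.16, adjusted p = 0.572), where a single wild-type array stood high. The alpha subunit gene atpA and the epsilon subunit gene atpE had intervals from -0.21 to 0.13 and from -0.32 to 0.23. The membrane subunit gene atpH, with 62.3, 71.6 and 107.0 in wild type and 56.6, 67.0 and 86.3 in spy-3, differed by -0.18 on the log2 scale (adjusted p = 0.76).

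The NADH dehydrogenase-like complex, which returns electrons to the chain in cyclic flow, had the lowest median of the electron transport classes, -0.25, with 9 of 10 members below 0. With an offset of 64 its median was -0.07, above the -0.10 of the photosystem II class, so this rank did not hold there. Besides ndhI, ndhA was without overlap, with signals of 105.0, 114.6 and 96.7 in wild type and 95.9, 72.4 and 83.9 in spy-3 (limma log2 fold change -0.33, adjusted p = 0.238). The margin between the groups was under 1 unit of signal. The remaining members above the median signal, ndhC and ndhD, had log2 fold changes of -0.11 and -0.23. The other 6 were dim and ranged from -0.31 (ndhK) to 0.45 (ndhJ).

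Against the common sign, rbcL was higher in the mean of spy-3. Its signals were 280.6, 238.8 and 247.2 in wild type and 277.7, 278.5 and 299.3 in spy-3 (limma log2 fold change 0.16, standard error 0.07, adjusted p = 0.304). The groups overlapped through a single wild-type array, and the interval was -0.02 to 0.34. The sign was positive in all 16 fits, none of which called it. The fatty acid synthesis gene accD, which lies next to rbcL in the plastid genome, had a log2 fold change of 0.08 (interval -0.08 to 0.24).

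Of the other members, ccsA, which acts in cytochrome c assembly, had signals of 537.3, 603.9 and 632.1 in wild type and 473.8, 525.0 and 560.2 in spy-3 (limma log2 fold change -0.19, adjusted p = 0.302). The intron maturase gene matK gave 1100.5, 1167.9 and 819.8 against 926.3, 700.2 and 968.8 (limma log2 fold change -0.25, adjusted p = 0.514). The protease gene clpP gave 830.8, 1048.2 and 1276.9 against 954.5, 929.7 and 914.6 (limma log2 fold change -0.15, adjusted p = 0.644). The groups overlapped in each of these 3 genes. The photosystem I assembly genes ycf3 and ycf4 and the envelope protein gene cemA had log2 fold changes of -0.01, -0.16 and -0.17.

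**Figure D3:**
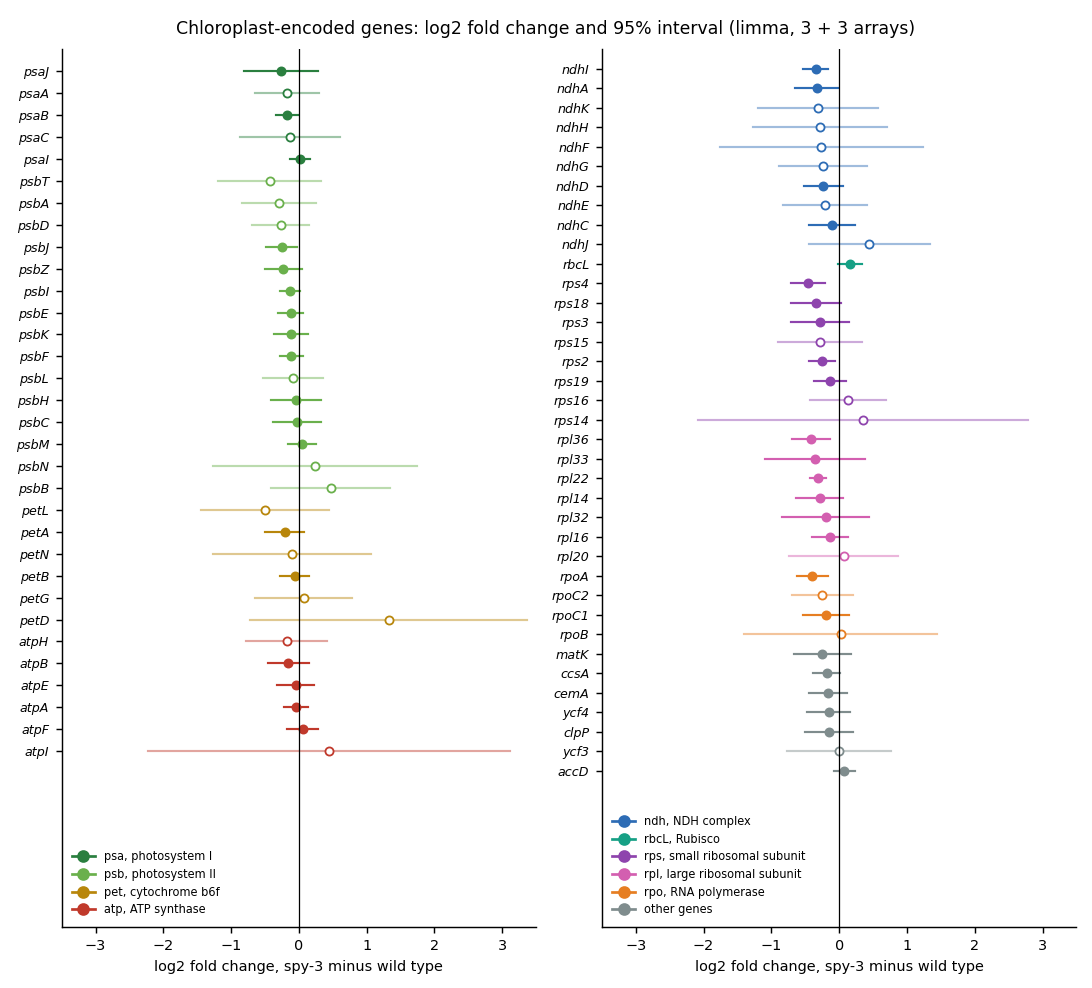
Log2 fold change of spy-3 against wild type (horizontal axes) for each of the 69 chloroplast-encoded genes, grouped and coloured by class, with its 95% interval from limma. Filled points are genes above the median signal and open points the dimmer ones. Of all intervals, 9 lie wholly below 0 and none wholly above, without adjustment for the number of genes.

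Transcription units differed in how far their members shared a sign, which is described here without a test. The long ribosomal unit that runs from rpl23 to rpoA had 7 measured members of 11, rps19, rpl22, rps3, rpl16, rpl14, rpl36 and rpoA. All 7 were below 0, with log2 fold changes from -0.42 to -0.13 and a median of -0.29, and all 7 were below 0 in each of the 16 fits. Without spy-3 replicate 2 the median of the unit was -0.18. Of the called or nearly called genes named above, rpl22, rpl36 and rpoA belong to this unit. The run of neighbouring genes from ndhH to ccsA had 8 of 8 members below 0, from -0.35 (ndhI) to -0.13 (psaC). Of these, 7 were below 0 without wild type replicate 2 or without spy-3 replicate 2. Whether ccsA shares a transcript with the other genes of this run was not checked. The unit of psaJ, rpl33 and rps18 had log2 fold changes of -0.27, -0.36 and -0.34, with a median of -0.13 without spy-3 replicate 2 against -0.34 with all arrays. In the unit of psbE, psbF, psbL and psbJ the values were -0.12, -0.11, -0.09 and -0.25. Other units were mixed in sign, among them that from rps2 to atpA, where 3 of 5 members were below 0, rps2 at -0.26 and atpA at -0.04. For the unit from psbB to petD, also mixed, the better measured members psbH and petB had -0.05 and -0.06. Genes that textbooks assign to the plastid-encoded polymerase (9 measured) had a median of -0.17, and those with a main promoter of the nuclear-encoded polymerase (5 measured of 6) one of -0.15. The former was -0.07 without wild type replicate 1 and -0.10 without wild type replicate 3, and the latter -0.0006 without wild type replicate 3. No difference between these groups can be read from so few genes.

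**Figure D4:**
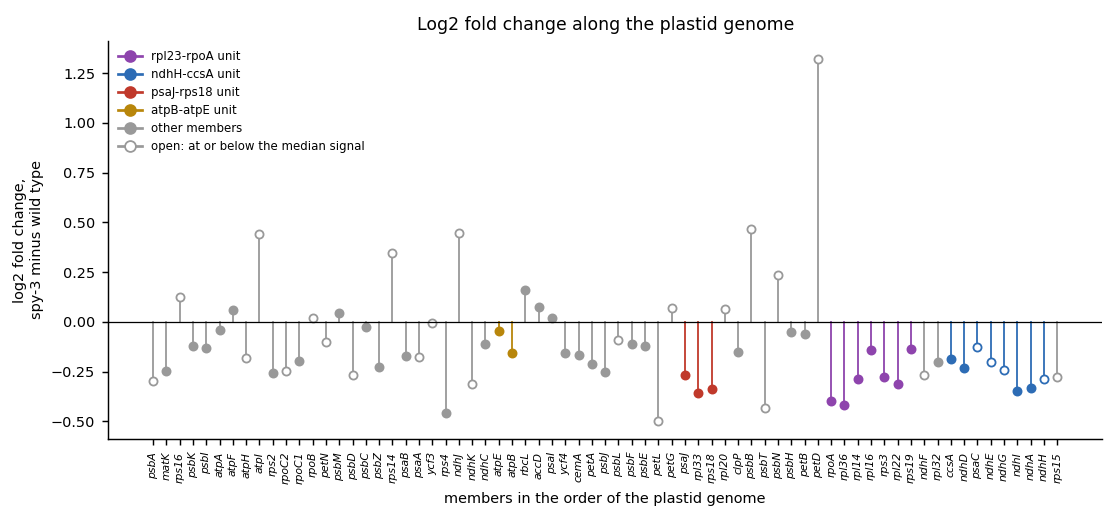
Log2 fold change of spy-3 against wild type (vertical axis) for the 69 members in the order of the plastid genome (horizontal axis, equal steps). In colour are 4 listed groups of neighbouring genes, of which that from ndhH to ccsA was not checked to be 1 transcription unit. Filled points are above the median signal. The purple unit from rpl23 to rpoA lies between -0.42 and -0.13.

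The arrays of a genotype also differed among themselves. Relative to each gene's wild-type mean, the median member lay at 0.06, 0.03 and -0.04 on the log2 scale on the 3 wild-type arrays and at -0.13, -0.21 and -0.12 on the 3 spy-3 arrays, whereas the median of all probe sets stayed between -0.01 and 0.02. Every spy-3 array was therefore below every wild-type array in this median. Within wild type, replicate 3 was lowest for 34 of the 69 members, and within spy-3, replicate 2 was lowest for 35. Wide spread was seen, for example, in genes chosen after their values were known. The large-subunit gene rpl33 had signals of 525.3, 533.1 and 297.9 in wild type and 441.9, 239.9 and 374.9 in spy-3, and rpl32 had 246.6, 242.1 and 161.8 against 239.6, 129.6 and 205.1. In both genes wild type replicate 3 lay below 2 of the spy-3 arrays, so a difference between genotypes was not detectable at this spread. When 1 array was left out in turn, the number of members below 0 ranged from 50 to 56.

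Nuclear genes of photosynthesis were lower in spy-3 on the same arrays, and by more. Of 56 listed nuclear genes that mark green tissue, 11 had a matched probe set of their own. Of these, 5 fell, against 3.13% of all probe sets, none rose, and all 11 were below 0, with a median log2 fold change of -0.71. Only 5 of the 11 were above the median signal of all probe sets. With an offset of 16 or 64, or without wild type replicate 2, 10 were below 0. Without wild type replicate 3 or without spy-3 replicate 2, 9 were. The median was -0.39 with an offset of 64. The number that fell was 3 without wild type replicate 1, against 5 with all arrays. Those that fell were RCA, which encodes Rubisco activase, the light-harvesting gene LHCB4.1, the photosystem genes PSAN and PSBW and the ATP synthase gene ATPC1. For ATPC1, the nuclear-encoded gamma subunit, signals of 365.3, 402.7 and 400.9 in wild type stood against 217.9, 237.2 and 261.3 in spy-3 (limma log2 fold change -0.71, adjusted p = 0.00534), while the plastid-encoded subunits atpA and atpB had -0.04 and -0.16. In PSAN, a photosystem I subunit, 129.4, 117.6 and 129.9 stood against 65.3, 63.9 and 70.6 (limma log2 fold change -0.92, adjusted p = 0.0038), and the plastid-encoded psaB had -0.17. These nuclear genes fell in complexes whose plastid-encoded subunits did not pass the test, although the difference between nuclear and plastid genes was not itself tested. The summed signal of the 11 genes was 1548.2 to 1585.2 in wild type and 979.8 to 1014.8 in spy-3. The lowest mean signal among the 11 was 7.48, that of PRK. The signs of the dim genes PRK and SBPASE were not resolved, with intervals from -2.42 to 2.05 and from -3.31 to 0.45. The summed signal of the 69 chloroplast-encoded members was 22935.3 to 24033.4 in wild type and 19717.9 to 22487.6 in spy-3, also without overlap. Such a sum is set mostly by the bright probe sets and does not describe every gene in it. The 27 members at or below the median signal summed to only 766.0 to 858.0 in wild type and 724.7 to 781.9 in spy-3, with overlap. The part of green tissue markers in the values of the chloroplast-encoded genes was not tested.

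**Figure D5:**
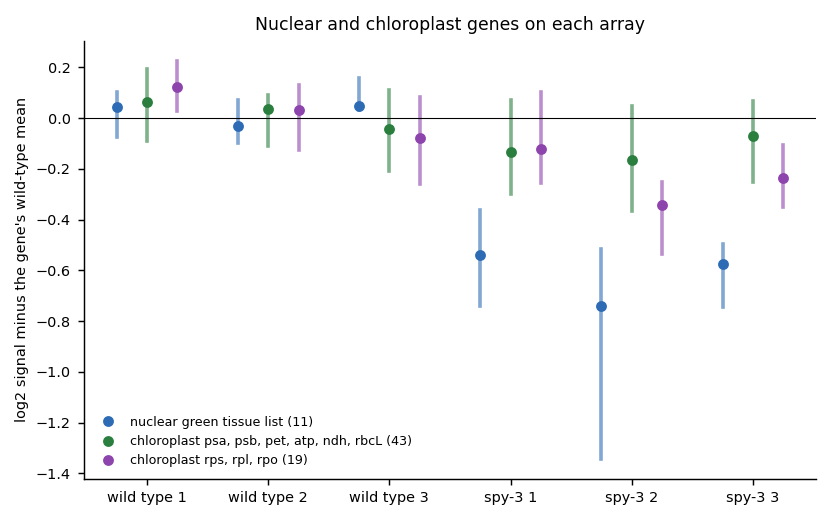
Log2 signal minus each gene's wild-type mean (vertical axis) on the 6 arrays, shown as the median (point) and the middle 50% (bar) of 11 nuclear green tissue genes (blue), 43 chloroplast genes of photosynthesis and electron transport (green) and 19 chloroplast rps, rpl and rpo genes (purple). On the spy-3 arrays the nuclear medians lie from -0.74 to -0.54, the green ones from -0.16 to -0.07 and the purple ones from -0.34 to -0.12.

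Few nuclear genes of the plastid's gene expression could be matched. A single gene was annotated to 13513 of the probe sets, and a match also needed that gene's ID in the RefSeq table. Why so many listed genes went unmatched was not tested. The other listed genes were not analysed here. Of 23 listed nuclear genes of plastid ribosomal proteins 2 had a matched probe set. The large-subunit gene PRPL5 had signals of 293.4, 271.8 and 242.9 in wild type and 197.5, 220.7 and 192.3 in spy-3 (limma log2 fold change -0.40, adjusted p = 0.0554). Its counterpart PRPL3 had 455.3, 534.8 and 459.6 against 412.1, 451.4 and 387.8 (limma log2 fold change -0.21, adjusted p = 0.244). Neither overlapped between genotypes, and neither passed. Of all probe sets above the median signal, 15.6% had all spy-3 arrays below wild type and 5.42% fell. Of 20 listed genes of plastid transcription, the phage-type polymerase gene RPOTMP alone was matched, at a limma log2 fold change of 0.08 (adjusted p = 0.844). The labelled tissue was checked with 13 listed root genes, of which 3 were matched. The beta-glucosidase gene PYK10, abundant in roots, had signals of 7250.2 to 7952.9 in wild type and 7091.7 to 8449.7 in spy-3. The root hair expansin genes EXPA7 and EXPA18 fell by 0.44 and 0.29 on the log2 scale (limma adjusted p = 0.00274 and 0.018). The other organelle genome could hardly be compared, because only 1 of 21 probe sets with a mitochondrial gene symbol was above the median signal. Among these 21, which include several probe sets each of nad1 and nad5, 11 were below 0, or 52.4%, against 46.7% of all probe sets. None was called, against 3.13% of all probe sets lower and 2.64% higher.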

How the data were processed

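Whole-root RNA was measured on 6 ATH1 arrays. The authors deposited linear intensity values, 1 for each probe set and array. The submitters' processing notes name MAS5 as the tool, and no source used here gives its version or settings. Array totals were nearly equal as deposited. A floor of 1 was applied before taking log2. The number of arrays limits the precision, and an exact permutation test of 3 against 3 arrays cannot give a p below 0.1.

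The 2 genotypes were tested against each other by limma 3.58.1 under R 4.3.3, two-sided, using lmFit and a trended eBayes over all 22746 probe sets, with Benjamini-Hochberg adjustment. The test was tried on simulated arrays. Joins and counts were made in Python 3.11.15 (pandas 2.3.3, scipy 1.17.1). The methods name an analysis of variance, whose form is cited from elsewhere, and a version for single probe sets was run as an alternative. Further alternatives were robust variances, no trend, dropping the dimmest 40% of probe sets, adding 16 or 64 to each signal, quantile normalization, centring on array medians, the replicate number as a block, stricter thresholds and leaving out each array.

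Probe sets were joined to the RefSeq table of TAIR10.1 by gene ID, and all 69 members carried the same symbol in both tables. The mitochondrial probe sets were chosen by symbol, because their IDs did not match that table. Nuclear genes were each represented by their brightest probe set. Members, gene lists and transcription units were chosen with earlier results of these data known. The genes described with all their array values are, by rule, those past the threshold or next to it, the 2 of lowest p and the brightest of each class, rbcL and psbA. The genes psaI, rpl33 and rpl32, the nuclear genes and the contrast of gene expression with electron transport classes were chosen after their values were seen. Whether probe sets also measure plastid-derived copies in other genomes was not tested.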

Additional observations from a re-analysis of the deposited data

How the results depend on the processing

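With the study's thresholds 0 chloroplast-encoded members were lower, as with limma without the trend, the analysis of variance or the replicate block. The count was 4 with median centring or an offset of 16 or 64, 5 with robust variances or without the dimmest 40% of probe sets, and 0 to 2 when arrays were left out in turn (2 without wild type replicate 3, namely rps4 and rpl36, 1 without wild type replicate 2, and 0 without any other). No member was higher under any alternative. The median log2 fold change was -0.10 with an offset of 64, which shrinks the changes of dim genes by construction, and -0.20 to -0.11 when arrays were left out. Over all probe sets, the counts lower and higher were 182 and 99 at the study's thresholds, 374 and 268 without the trend, 371 and 287 by the analysis of variance, 391 and 265 with the replicate block, and 312 to 496 and 203 to 377 when arrays were left out. The fits without an array also had fewer samples. The cause of the smaller counts was not tested in any of these fits. The deviations of same-numbered arrays of the 2 genotypes correlated at 0.02, 0.0003 and 0.05 across all probe sets, and at 0.18, -0.15 and 0.18 across those above the median signal. In neither set did all 3 pairs exceed 0.1, so the replicate number was not treated as a pairing. Of the 24 genes named by rule, the calls were the same as reported in 331 results, gained in 19 and lost in 8, all 8 those of rpl22. Members under the median signal of the array carry wide intervals, and changes of the size seen here could not be resolved for them.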

Other observations

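Plastid genes that lie in the inverted repeat, or are split between distant parts of the genome, share 8 probe sets with their second copy and were not among the members. Their values were below 0 in 6 of 8 cases, or 75%, against 46.7% of all probe sets, with a median log2 fold change of -0.18. None was called, against 3.13% of all probe sets lower and 2.64% higher. All spy-3 arrays lay below wild type in 3, or 37.5%, against 11.5% of all probe sets. The ribosomal protein gene rpl2 had signals of 2436.7, 2453.5 and 2313.8 in wild type and 2087.2, 2172.0 and 2128.8 in spy-3, without overlap (limma log2 fold change -0.17, standard error 0.04, adjusted p = 0.0602). In ycf1, a gene of plastid protein import, 363.2, 467.3 and 450.9 stood against 353.1, 318.9 and 350.4, also without overlap (limma log2 fold change -0.32, adjusted p = 0.155). For rpl23 and rps7, which encode ribosomal proteins, the log2 fold changes were -0.18 and -0.19, with overlapping groups. The probe sets of ndhB (log2 fold change -0.22, without overlap) and ycf2 (0.87, with overlap) were dim, and the 2 of rps12, at log2 fold changes of 0.30 and -0.04, did not share a sign.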
